A study of Mus musculus with 3 samples.

Results

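The heat shock chaperones and their co-chaperones are described here across classes of hippocampal nuclei. They were taken as every gene whose symbol begins with Hspa, Hsp90, Dnaja, Dnajb or Dnajc and goes on with the family's numbering, together with Hsph1, Hspd1 and Hspe1, provided that at least 30 unique molecular identifiers (UMIs, each counting 1 captured RNA molecule) were found over all libraries. Of the 32285 genes in the files, 64 matched by symbol and 60 met the minimum. Dnajb7, with 49 UMIs, was the lowest inside it, and Dnajb8, with 23, the highest outside it. Dnajb13 (19 UMIs), Dnajc5g (4) and Dnajc22 (3) also stayed outside. By role the 60 comprised 11 cytosolic HSP70 and HSP110 genes, 2 cytosolic HSP90 genes, 10 cytosolic DNAJA and DNAJB genes, 12 genes of the endoplasmic reticulum, 10 of mitochondria, 5 DNAJC genes of vesicle and membrane traffic and 10 other DNAJC genes.

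Nuclei sorted from hippocampus had been profiled with a 10x droplet assay of RNA 3′ ends, in 3 adult female mice of the genotype Scn8aD/+ that are titled post-onset. Scn8a encodes a voltage-gated sodium channel, and the series title places the mice among models of developmental and epileptic encephalopathy. All 3 mice form 1 group, no control mice were analysed here. Each mouse had its own batch number, which means that batch and mouse cannot be told apart. No conditions are compared, and every test below sets 1 class of nuclei against another inside each mouse.

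HSP70 proteins bind exposed stretches of unfolded or newly made proteins and release them in a cycle driven by ATP. J-domain proteins, the DNAJ families, deliver clients to HSP70 and start ATP hydrolysis, HSP110 proteins such as Hsph1 exchange the nucleotide, and HSP90 acts later on partly folded clients such as kinases and receptors. Heat shock factor 1 induces some of these genes in stressed cells, the unfolded protein response induces those of the endoplasmic reticulum, and in neurons specialised J-domain proteins serve the synapse: Dnajc6 (auxilin) strips clathrin from vesicles and Dnajc5 (cysteine string protein) sits on synaptic vesicles.

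Both induction programmes have known DNA elements, so the promoters were searched for them. Stretches with a match are shown for some genes, and the part of the elements in the levels below was not tested. RefSeq promoter windows (build GRCm38.p6, 250 bases before to 50 after a transcript start) were matched for 48 of the 60 genes. The 12 genes without a window, which were not searched, include Hspa8, Hsp90aa1 and Hsp90ab1. The endoplasmic reticulum stress element, searched on both strands as CCAAT, 9 bases of any kind and CCACG, was found in the windows of 3 of them, Hspa5, Hsp90b1 and Dnajc3, which are 6.25% of the matched members, against 0.137% of 27025 genes. All 3 encode proteins of the endoplasmic reticulum and belong to the 11 matched genes of that role. The heat shock element, searched on both strands as GAA, TTC and GAA with 2 bases of any kind after the first and the second, was found for Hspd1, Hspe1, Hsph1 and Dnajb6, which are 8.33% of the matched members, against 0.662% of all genes. The windows of Hspd1 and Hspe1 overlap and hold the same 2 matches. Of the 10 matched genes on the heat-inducible list used below, 3 held the element. Hspa1a, Hspa1b and Dnajb1 were among those without an exact match to this pattern, and looser forms of the element were not searched. A match describes letters only. The sequences run 5′ to 3′ on the strand of the gene, and capitals mark the matched element:
Hspa5, chr2:34772020-34772049, plus strand: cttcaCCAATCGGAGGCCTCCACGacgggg
Hsp90b1, chr10:86705510-86705664, minus strand: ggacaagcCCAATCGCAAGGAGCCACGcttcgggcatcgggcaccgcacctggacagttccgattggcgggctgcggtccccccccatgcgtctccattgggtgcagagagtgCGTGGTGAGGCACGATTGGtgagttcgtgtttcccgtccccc
Dnajc3, chr14:118937782-118937931, plus strand: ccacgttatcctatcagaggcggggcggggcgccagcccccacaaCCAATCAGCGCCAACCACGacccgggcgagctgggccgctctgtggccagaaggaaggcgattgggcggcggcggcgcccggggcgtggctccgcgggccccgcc
Hspe1, chr1:55088053-55088082, plus strand: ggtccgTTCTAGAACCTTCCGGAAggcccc
The Hsp90b1 stretch holds the element in each orientation, and the Hspe1 stretch holds 2 overlapping heat shock elements. Hspe1 and Hspd1, the cochaperonin and chaperonin of mitochondria, lie head to head, and the Hspe1 site falls inside the annotated extent of Hspd1. The Hspa5 site falls inside the annotated extent of Hspa5 itself, and the Hsp90b1 and Dnajc3 stretches lie outside every annotated gene.

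Hspa1a and Hspa1b, the classical heat-inducible HSP70 genes, are near-identical copies. Their 150 bases before the start, also outside every annotated gene, are shown to let the copies be compared, with the single differing position in capitals:
Hspa1a, chr17:34972157-34972306, minus strand: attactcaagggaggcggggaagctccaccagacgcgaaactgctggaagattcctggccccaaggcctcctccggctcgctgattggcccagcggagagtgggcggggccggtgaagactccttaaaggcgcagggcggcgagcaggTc
Hspa1b, chr17:34959239-34959388, minus strand: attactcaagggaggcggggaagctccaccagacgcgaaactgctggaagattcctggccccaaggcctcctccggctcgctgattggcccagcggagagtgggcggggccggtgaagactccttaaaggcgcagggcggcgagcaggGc
The stretches agree at 149 of 150 positions. The transcribed sequences were not compared here. Reads of such copies can be hard to assign, so counts of either gene are taken as uncertain and both are given side by side.

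The libraries held 100230288, 50931257 and 140527761 UMIs for mice 1, 2 and 3, with medians of 8859, 1711 and 25775 per barcode. After removal of shallow nuclei and doublets, 7889, 11807 and 4393 nuclei remained, and 13 to 36 barcodes were shared between any pair of libraries. Clusters were named from marker genes, always with "-like", and none of the 60 genes took part in the clustering. CA1-like nuclei of mice 1 and 2 lay mostly in 1 cluster and those of mouse 3 in another. The 10 leading genes of both held the astrocyte marker Gpc5, and those of the mouse 3 cluster held no CA1 marker. Mouse 2 was shallow and also had 1302 CPM (the usual scaling of UMI counts by the total of the class) of 8 glutamatergic markers in its glia-like nuclei, against 567 in mouse 1 and 373 in mouse 3. In glutamatergic neuron-like nuclei those markers summed to 2146, 2148 and 1535 CPM in mice 2, 1 and 3. Nuclei that received no name made up 26.3% of the kept nuclei of mouse 2, against 9.58% in mouse 1 and 5.71% in mouse 3. Levels are compared below only within a gene, because longer members had higher nuclear levels (Spearman's rho 0.53 across the 60 genes, which are not independent).

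Across 14 classes, the class with the highest mean level was vascular-like for 22 of the 60 genes, microglia-like for 13, astrocyte-like for 9 and Cajal-Retzius-like for 5. Granule-like nuclei of the dentate gyrus held the highest mean of 4 genes. These counts were not made over all genes, and they include low members such as Dnajb3, at 1.82 ± 3.14 CPM (SD, n = 3) in vascular-like nuclei. The vascular-like class was small, with 38, 67 and 60 nuclei in mice 1, 2 and 3. Beside these levels, it held 2478, 1308 and 1547 CPM of 8 genes encoded by the mitochondrial genome, against 82.8, 90.8 and 89.1 in neuron-like nuclei, and 2832, 1447 and 1291 CPM of 10 ribosomal protein genes, against 370, 404 and 230. The part of this RNA in the chaperone levels was not tested.

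**Figure D1:**
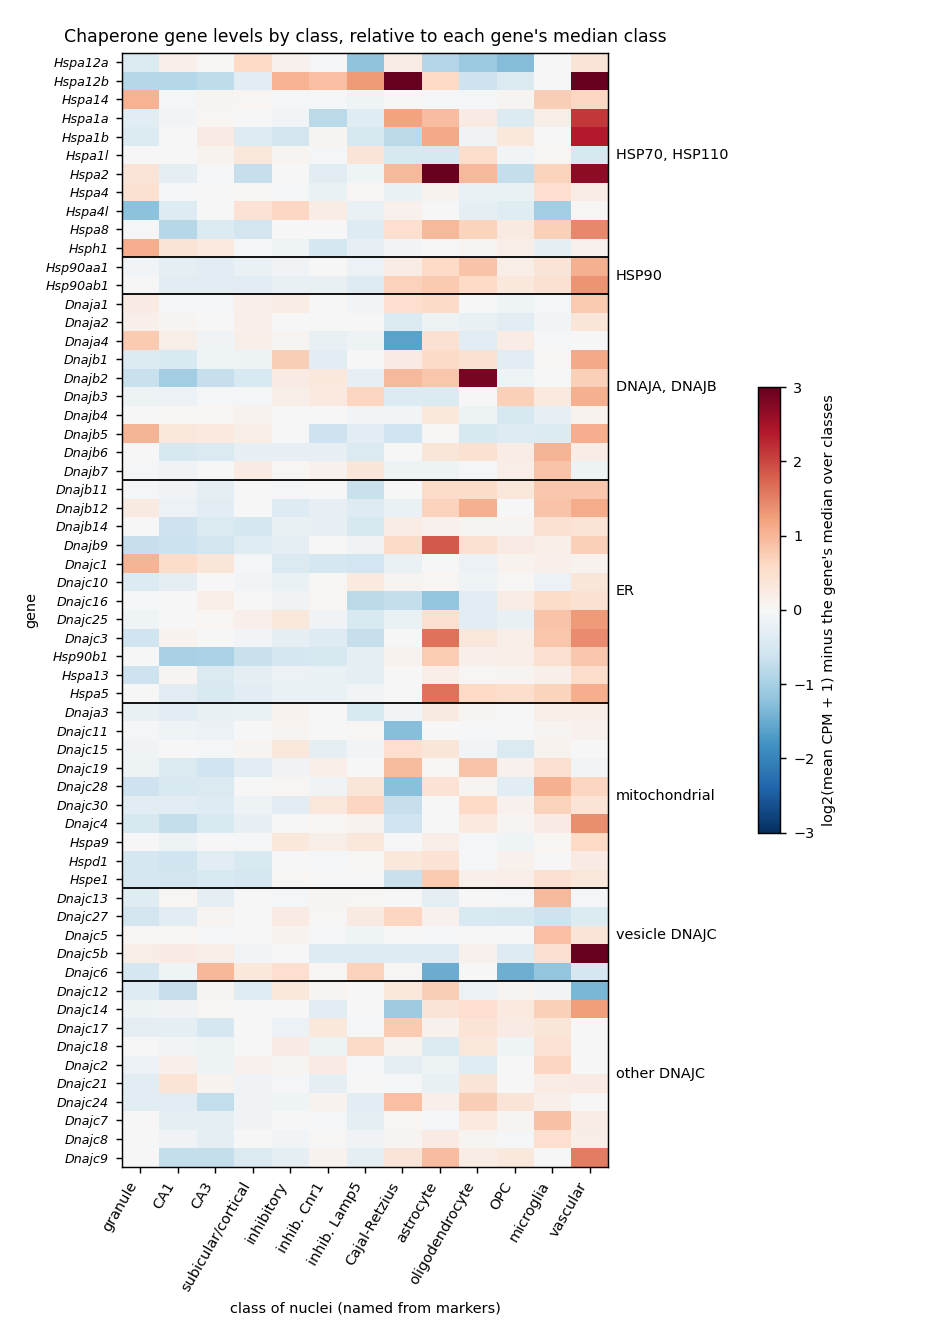
Mean level of each of the 60 genes (rows, grouped by role) in 13 classes of nuclei (columns), as log2(mean CPM + 1) over the 3 mice minus the gene's own median over the classes shown; colours stop at 3 in either direction, and glutamatergic nuclei not placed in a subclass are left out. Most cells are pale, and strong colours include Hspa12b in vascular-like and Cajal-Retzius-like, Hspa2 in astrocyte-like, Dnajb2 in oligodendrocyte-like and the low gene Dnajc5b in vascular-like nuclei.

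Among the cytosolic HSP70 genes, Hspa12b, an atypical family member known from endothelial cells, stood at 59.9, 24.5 and 52.5 CPM in vascular-like nuclei of mice 1, 2 and 3. These levels rest on 11, 3 and 25 UMIs. Cajal-Retzius-like nuclei came next by mean, at 21.4 ± 20.8 CPM beside 45.6 ± 18.7 in vascular-like nuclei (SD, n = 3), so the spreads overlap. In the CA1-, CA3- and granule-like classes no mouse exceeded 0.853 CPM. Hspa2, an HSP70 best known from male germ cells, stood at 13.5, 42.0 and 22.5 CPM in astrocyte-like nuclei, from 3, 10 and 32 UMIs. In oligodendrocyte precursor (OPC)-like nuclei it was at 0, 0.983 and 0.577 CPM. Astrocyte-like and OPC-like values of Hspa2 did not overlap.

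Hspa8, the constitutive HSP70 that works with auxilin in clathrin uncoating, was highest in vascular-like nuclei, at 218, 262 and 210 CPM, and lowest in CA1-like nuclei, at 66.8, 31.4 and 40.2 CPM. Astrocyte-like nuclei, at 175, 83.9 and 237 CPM, overlapped with the vascular-like ones. Hsp90ab1, the constitutive form, stood at 289, 262 and 266 CPM in vascular-like and at 107, 82.2 and 66.6 CPM in CA1-like nuclei. Hsp90aa1, the inducible form, reached 163, 123 and 210 CPM in vascular-like nuclei and 184, 110 and 137 CPM in oligodendrocyte-like nuclei, so those classes overlapped.

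Hspa1a and Hspa1b were near the floor of detection. In granule-like nuclei Hspa1a stood at 0.625, 0.311 and 0.330 CPM and Hspa1b at 0.512, 0 and 0.385 CPM. The highest class mean of either gene was that of vascular-like nuclei, 6.71 ± 7.43 CPM for Hspa1a and 8.11 ± 9.72 for Hspa1b (SD, n = 3), with mouse 2 at 0 for both, so the SD exceeded the mean. Dnajb1, the J-domain partner induced with them, lay between 0.932 and 6.67 CPM in the granule-, CA1- and CA3-like classes of all mice.

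Hspa5 and Dnajc3 were among the 9 members with their highest class mean in astrocyte-like nuclei. Hspa5 (BiP), the HSP70 of the endoplasmic reticulum, stood at 94.3, 75.6 and 211 CPM there and at 27.6, 31.5 and 27.1 CPM in CA3-like nuclei. These were its highest and lowest of 14 classes by mean, a choice that favours their lack of overlap. Dnajc3, which inhibits the kinase PERK, stood at 103, 88.1 and 144 CPM in astrocyte-like and at 26.9, 31.4 and 10.97 CPM in granule-like nuclei. For both genes vascular-like nuclei came second by mean. Hspa5 had 127 ± 73.2 CPM in astrocyte-like and 85.8 ± 40.2 CPM in vascular-like nuclei, and Dnajc3 112 ± 29.1 and 97.2 ± 50.4 CPM (SD, n = 3). Neither pair differs beyond its spread. Hsp90b1 (GRP94) had the means 164 ± 71.4 CPM in vascular-like and 158 ± 49.2 CPM in astrocyte-like nuclei, which do not differ beyond their spread. Dnajb9, a J-domain partner of Hspa5 in the same compartment, followed with 31.4, 21.0 and 36.6 CPM in astrocyte-like nuclei, and 6.82, 2.49 and 3.52 CPM in granule-like nuclei. The astrocyte-like class comprised 42, 65 and 118 nuclei, and the 8 mitochondrially encoded genes summed to 350, 332 and 511 CPM in it. The part of that RNA in these levels was not tested.

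Dnajb2, a J-domain protein with ubiquitin-binding motifs that passes clients to the proteasome, was highest in oligodendrocyte-like nuclei, at 268, 117 and 124 CPM. The next class by mean, Cajal-Retzius-like, stood at 46.2, 71.1 and 18.9 CPM, below every oligodendrocyte-like value. Dnajc6 was highest in CA3-like nuclei, at 430, 314 and 475 CPM, and next in the Lamp5 inhibitory-like class, at 358, 265 and 360 CPM, and those ranges overlap. Oligodendrocyte-like nuclei held 262, 220 and 124 CPM, above granule-like nuclei in every mouse, and astrocyte-like nuclei held 80.9, 88.1 and 45.1 CPM. Dnajc5 stood at 149, 101 and 157 CPM in microglia-like nuclei and between 56.9 and 92.0 CPM in the granule-, CA1- and CA3-like classes.

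**Figure D2:**
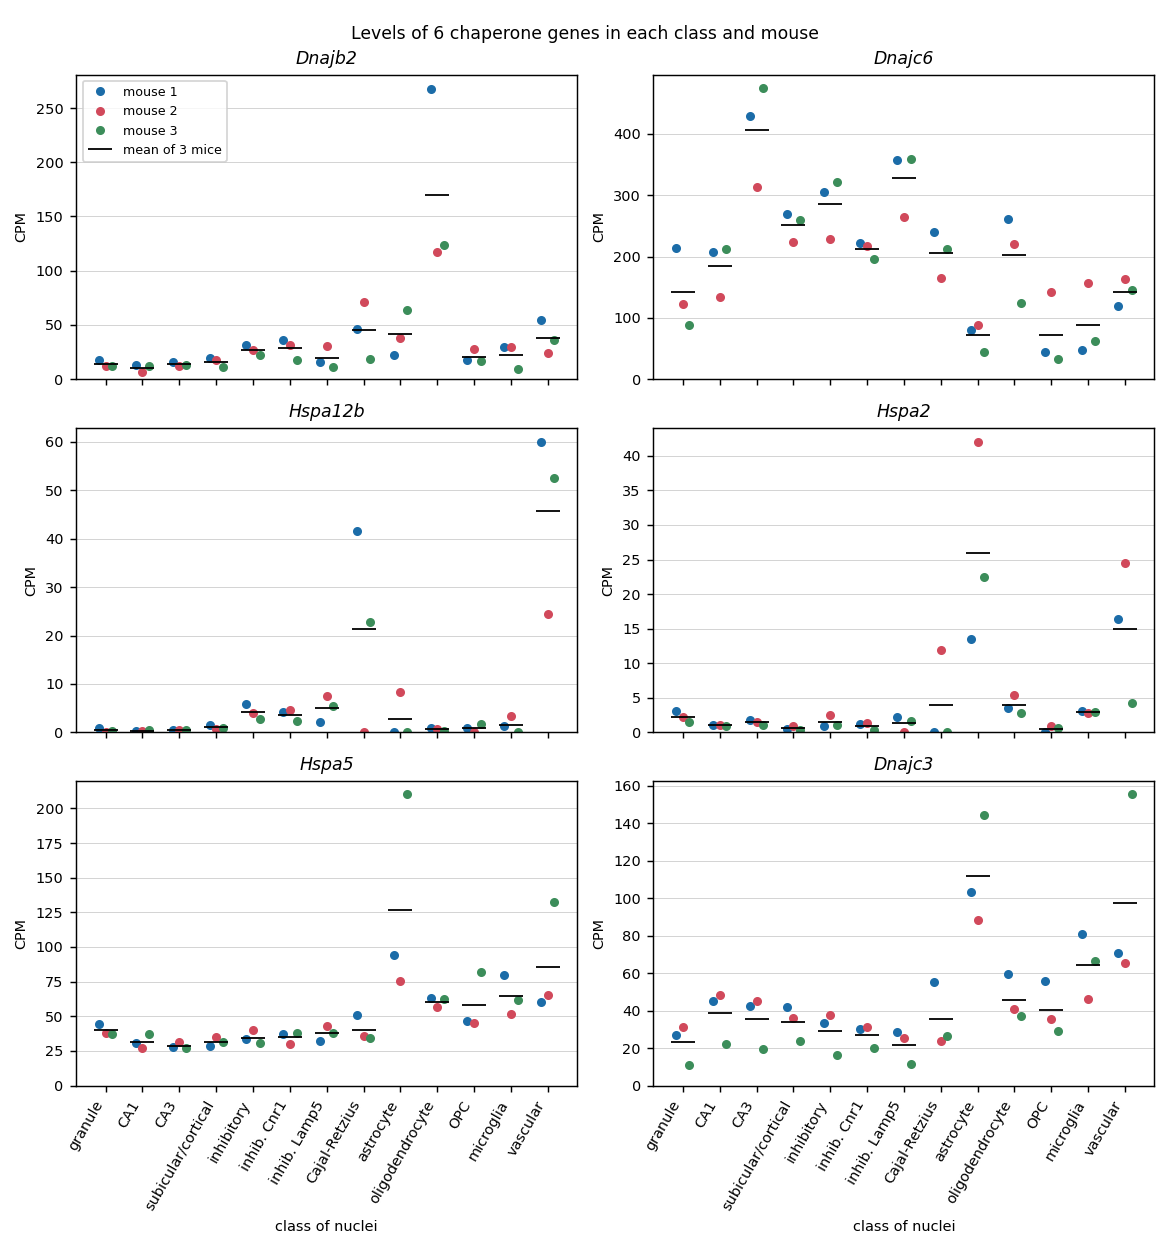
CPM (vertical axes, from 0) of 6 genes in 13 classes of nuclei (horizontal axes); points are mice and the bar is their mean. Dnajb2 in oligodendrocyte-like nuclei sits at 117 to 268 CPM, above every point of the other classes shown, whereas Dnajc6 is spread over neuron-like classes up to 475 CPM.

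Hspa9 (mortalin), the HSP70 of the mitochondrial matrix, had class means from 47.5 ± 12.6 CPM in CA1-like to 80.8 ± 6.90 CPM in vascular-like nuclei. Hspd1 was at 20.2, 18.6 and 12.7 CPM in granule-like and at 31.4, 25.2 and 45.8 CPM in astrocyte-like nuclei, and its partner Hspe1 at 16.3, 12.7 and 7.84 against 35.9, 29.4 and 31.7 CPM. Neither gene overlapped between those classes, which is favoured by the choice of astrocyte-like nuclei, the highest of 14 classes by mean for both. None of the 10 mitochondrial members was called in any comparison below other than Dnajc19, a J-domain protein of the import motor, which was lower in OPC-like than in oligodendrocyte-like nuclei.

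Neuron-like and glia-like nuclei were compared first, to ask which chaperones separate them. Of 58 members tested, 5 were called at an adjusted p under 0.05 (8.62%), beside 23.9% of all 18280 genes tested, 8.7% higher and 15.3% lower in neurons. Dnajb2 was lower in neurons, at 19.0, 17.6 and 13.1 CPM against 177, 61.5 and 73.1 in glia. Its log2 fold change was -2.12 ± 0.31 (SE), with an adjusted p of 0.02 in edgeR's quasi-likelihood test. Among glia the high values were those of oligodendrocyte-like nuclei, and OPC- and microglia-like levels, given below, lay near those of neurons. The 4 others were higher in neurons. Hspa12a, an atypical HSP70 abundant in brain, stood at 90.5, 70.0 and 32.3 CPM in neurons and at 31.7, 47.9 and 19.8 CPM in glia. The groups overlap because mouse 3 was low in both, but neurons were higher in 3 of 3 mice (log2 fold change 1.31 ± 0.26, edgeR adjusted p 0.0351). Dnajb5, a J-domain protein known as a redox-sensitive partner of a histone deacetylase, stood at 61.0, 41.7 and 39.6 against 24.8, 29.2 and 17.04 CPM, without overlap (1.40 ± 0.29, edgeR adjusted p 0.0364). Dnajc27 (0.77 ± 0.18) and Hspa4l (0.70 ± 0.17) differed by less than 2-fold.

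Several core members differed without passing the test. Hspa8 stood at 93.9, 72.0 and 46.9 CPM in neurons against 168, 113 and 121 CPM in glia, and Hspa5 at 34.4, 35.6 and 34.2 against 64.8, 53.4 and 91.8 CPM. Neither overlapped between the classes, yet the log2 fold changes of -0.57 ± 0.17 and -0.59 ± 0.16 had edgeR adjusted p of 0.0629 and 0.0537. Hspa2 (-1.18 ± 0.36), Dnajc6 (1.16 ± 0.40), Hsph1 (0.80 ± 0.30) and Hspa4 (0.53 ± 0.20) did not pass either, and the remaining 13 of 21 core members (the main HSP70, HSP90, chaperonin and J-domain genes) lay between -0.50 and 0.43. Over all tested members the median log2 fold change was 0.04, beside 0.04 over all genes. Without the TMM factor, a scaling that sets most genes to no change, the median of all genes moved to -0.34 and 12 members were called, 2 higher and 10 lower in neurons, in place of 4 and 1. Of all genes 27.2% were then called. Without mouse 1 or without mouse 3 edgeR called 0 members, as it called 0 of all genes, with 4 and 6 members at an unadjusted p under 0.05. Thinning of every nucleus to 1000 UMIs left only Dnajb2 called, beside 16.6% of all genes. Without mouse 2, whose glia held the most neuronal marker RNA, 14 members were called, the 5 included, beside 38.3% of all genes.

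Within glia, Dnajb2 separated oligodendrocyte-like nuclei from both other classes. OPC-like nuclei held 17.8, 27.5 and 16.7 CPM and microglia-like nuclei 29.6, 29.6 and 8.96 CPM, against 268, 117 and 124 CPM. The log2 fold changes were -2.999 ± 0.37 (edgeR adjusted p 0.00985) and -3.26 ± 0.51 (0.0302). These comparisons share the oligodendrocyte-like sums. In microglia-like nuclei it was the only member called of 53 tested (1.89%), beside 12.9% of all genes, 8.64% higher and 4.29% lower.

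Of 51 members tested between OPC- and oligodendrocyte-like nuclei 4 were called (7.84%), all lower in OPC-like nuclei, beside 17% of all genes, 8.93% higher and 8.1% lower. Dnajc6 stood at 44.1, 142 and 32.9 CPM in OPC-like against 262, 220 and 124 CPM in oligodendrocyte-like nuclei (-1.73 ± 0.39, edgeR adjusted p 0.0375), with the mouse 2 value of the OPC-like class inside the range of the other. Dnajb12, a J-domain protein of the endoplasmic reticulum membrane, stood at 21.2, 15.7 and 20.8 against 48.7, 28.8 and 46.3 CPM, without overlap (-1.13 ± 0.19, 0.019). Dnajc19 changed by -0.85 ± 0.21. Hsp90aa1, at 104, 76.7 and 90.1 against 184, 110 and 137 CPM, fell just short of the threshold (-0.70 ± 0.18, edgeR adjusted p 0.0513).

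Among core members between microglia- and oligodendrocyte-like nuclei the lowest edgeR adjusted p was that of Hspa4l. Hspa4l, an HSP110 gene of the cytosol, stood at 24.0, 38.2 and 30.6 against 46.2, 50.0 and 59.8 CPM, without overlap (-1.09 ± 0.28, edgeR adjusted p 0.0674). Hspa12a and Dnajc5 ran the other way without overlap, Dnajc5 at 149, 101 and 157 against 67.9, 77.1 and 72.0 CPM (0.54 ± 0.20, 0.145). Without mouse 1 the test called Dnajb2 only against OPC-like nuclei, and without mouse 3 against neither class. For microglia-like nuclei it then called 0 of all genes without either mouse. For OPC-like nuclei it called 2.57% of all genes without mouse 1 and 0 without mouse 3. Without mouse 2, 9 members were called between microglia- and oligodendrocyte-like nuclei, beside 34.2% of all genes. In that mouse 8 oligodendrocyte markers summed to 1263 CPM in OPC-like and 1437 CPM in microglia-like nuclei, against 234 to 778 and 193 to 348 CPM in the other mice, and 8185 CPM in its oligodendrocyte-like nuclei. Without the mouse block, 1 member of the 4 remained called against OPC-like nuclei, Dnajb2, beside 12.3% of all genes.

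Granule-like nuclei differed from CA pyramidal-like nuclei (CA1 and CA3 pooled) in the most chaperones. Of 58 members tested 14 were called (24.1%), a share near the 27.4% of all genes, with 11 higher and 3 lower in granule-like nuclei. Among all genes the calls leaned the other way, with 9.93% higher and 17.5% lower. The 11 came from several compartments: Hspa8, Hspa14 and Hsph1 of the cytosolic HSP70 and HSP110 group, Dnaja4, Dnajb5 and Dnajb6 of the cytosolic J-domain group, Hsp90b1, Dnajb12, Dnajb14 and Dnajc1 of the endoplasmic reticulum, and Dnajc9, a J-domain protein that also binds histones. All 11 were higher in 3 of 3 mice, which a test with the mouse as a block favours. Of the 58 members tested, 22 were higher and 15 lower in 3 of 3 mice, and this was not counted over all genes.

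Hsph1 stood at 110, 89.8 and 173 CPM in granule-like and at 62.9, 58.6 and 106 CPM in CA pyramidal-like nuclei. Mouse 3 was the highest in both, so the classes overlap across mice and not within a mouse (0.76 ± 0.13, edgeR adjusted p 0.00469). Hsp90b1 stood at 109, 111 and 58.8 against 48.0, 57.0 and 39.7 CPM, without overlap (0.95 ± 0.16, 0.00414). Hspa14, a ribosome-associated HSP70, stood at 109, 39.8 and 46.2 against 39.1, 31.8 and 25.3 CPM (0.97 ± 0.21, 0.0128), without overlap. Hspa8 showed the smallest called change of the HSP70 genes, at 127, 65.6 and 53.8 against 77.1, 48.7 and 39.8 CPM (0.58 ± 0.13, 0.0159).

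Lower in granule-like nuclei were Hspa4l, Dnajc6 and Dnajc3. Hspa4l stood at 38.7, 23.0 and 18.6 against 63.4, 55.3 and 51.8 CPM (-1.10 ± 0.17, edgeR adjusted p 0.00373), and Dnajc6 at 214, 123 and 88.8 against 301, 251 and 323 CPM (-1.07 ± 0.25, 0.0181), both without overlap. Hspa4l and Hsph1, both HSP110 genes, thus ran in opposite directions. Dnajc3 stood at 26.9, 31.4 and 10.97 against 44.0, 46.3 and 21.1 CPM (-0.69 ± 0.15, edgeR adjusted p 0.0148), opposite in direction to Hsp90b1. The same promoter element was matched for both genes, and its part in their levels was not tested. Hspa12a (-0.76 ± 0.25), Hspa2 (0.89 ± 0.32), Hspa1a (-0.51 ± 0.50) and Hspa1b (-1.004 ± 0.54) were not called. Activity-regulated genes moved with these classes and mice: 13 of them summed to 2857, 233 and 867 CPM in granule-like and 1142, 208 and 659 CPM in CA pyramidal-like nuclei, and their part in the chaperone levels was not tested. Granule-like nuclei of mouse 2 numbered 237, against 1635 and 1337 in mice 1 and 3. Their median of 13270 UMIs lay above the 9938 of mouse 1, although all kept nuclei of mouse 2 had a median of 1796. With each library clustered alone, mouse 2 had 959 granule-like nuclei with a median of 2160 UMIs, and 0 CA1-like nuclei. Without the mouse block Hspa4l and Hsp90b1 remained called, 2 of the 14, thinning to 1000 UMIs left 5 with Hspa4l at -0.81 (edgeR adjusted p 0.0841), and without mouse 1, 2 or 3 the calls numbered 7, 7 and 14.

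**Figure D3:**
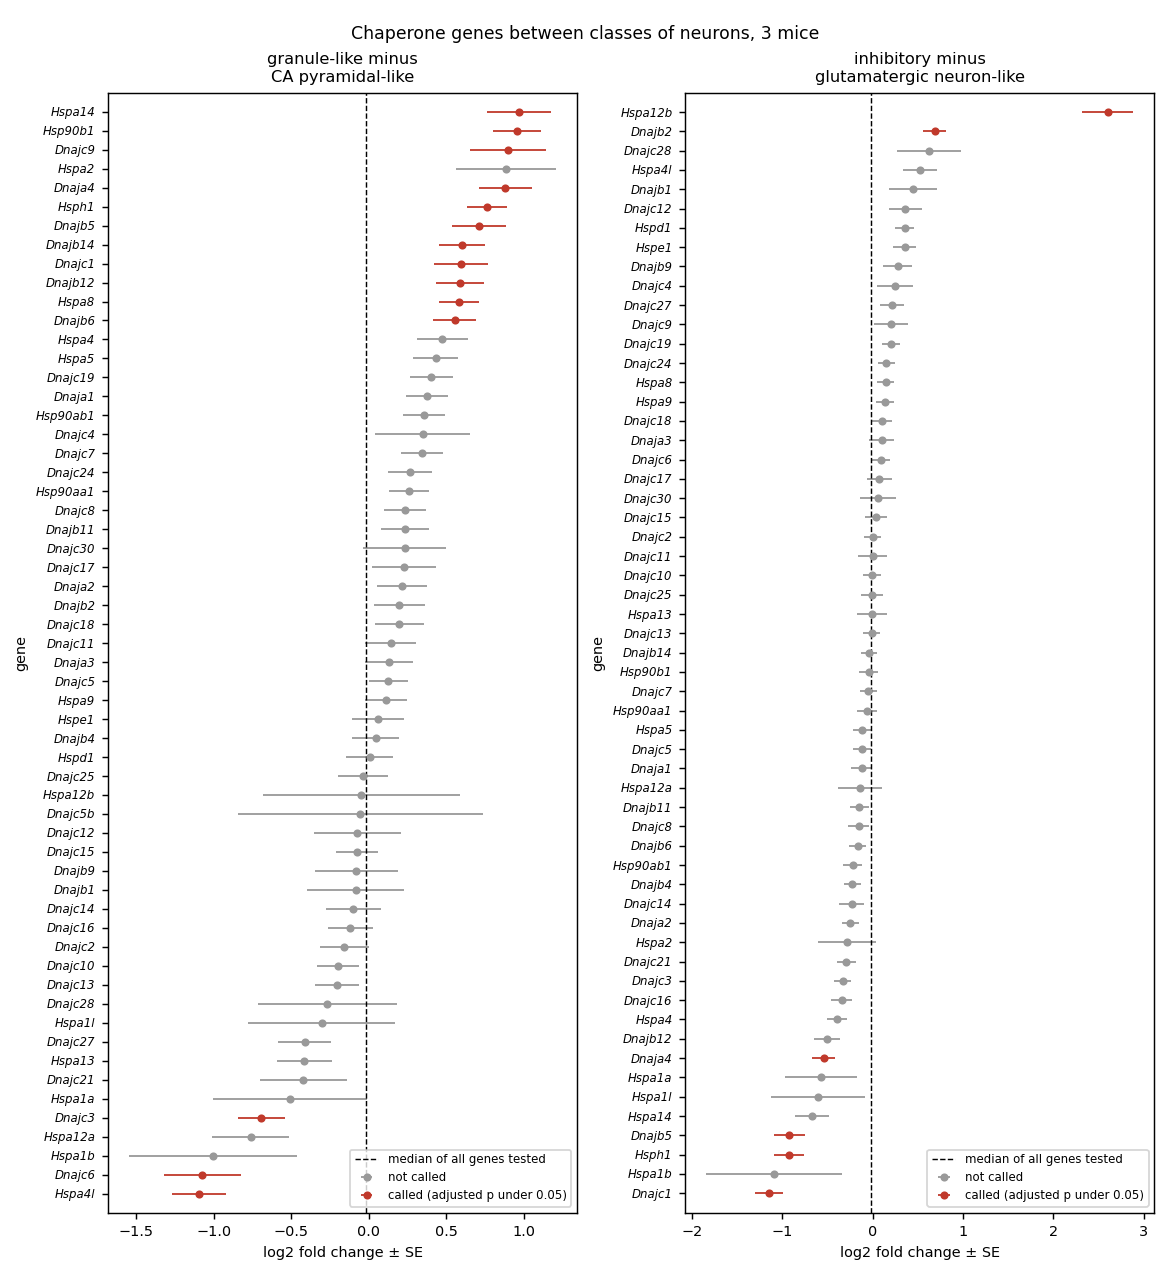
Log2 fold change ± SE (horizontal axis) of every tested member (vertical axis) between granule-like and CA pyramidal-like nuclei (left) and between inhibitory and glutamatergic neuron-like nuclei (right), with the 3 mice as blocks; red points passed an adjusted p under 0.05 and the dashed line is the median of all genes tested. On the left 11 members lie to the right of 0 in red and 3 to the left, and on the right Hspa12b stands alone at 2.60.

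CA3-like nuclei differed from CA1-like nuclei in 2 of 55 members tested (3.64%), both higher in CA3-like nuclei, beside 15.2% of all genes, 8.9% higher and 6.34% lower. Dnajc6 stood at 430, 314 and 475 against 208, 133 and 213 CPM, without overlap, a log2 fold change of 1.11 ± 0.10 (edgeR adjusted p 0.00124). Hspa4l stood at 75.0, 61.1 and 57.1 against 55.0, 44.4 and 47.9 CPM (0.35 ± 0.09, 0.0477), also without overlap. Its call held with a minimum of 1000 genes per nucleus and was lost under DESeq2, its size factors, no TMM factor, no low-count filter, no mouse block, thinning, separate clustering and with any 1 mouse left out. Hspa13, an HSP70 of microsomes, was lower in 3 of 3 mice without overlap, at 8.92, 8.64 and 9.42 against 10.7, 14.9 and 14.1 CPM, and did not pass (-0.55 ± 0.16, 0.0741). The other core members, Hspa1b at 0.62 ± 0.52 apart, lay between -0.18 and 0.48. Without mouse 3, whose CA1-like cluster had no CA1 marker among its leading genes, Dnajc6 was still called and Hspa4l was not. In all 6 members were then called, beside 18.5% of all genes. Without the mouse block edgeR called 0 members, with 2 at an unadjusted p under 0.05, and 2.32% of all genes.

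Inhibitory and glutamatergic neuron-like nuclei differed in 6 of 57 members tested (10.5%), beside 25.9% of all genes, 13.1% higher and 12.8% lower. Hspa12b stood at 4.81, 4.32 and 3.05 CPM in inhibitory and at 0.787, 0.455 and 0.521 CPM in glutamatergic nuclei, without overlap (2.60 ± 0.28, edgeR adjusted p 0.00525), so this low gene was the member with the largest fold change within neurons. Dnajb2 was higher too, at 30.6, 28.2 and 19.4 against 17.2, 14.4 and 12.3 CPM (0.69 ± 0.13, 0.0166). Lower in inhibitory nuclei were Dnajc1, a J-domain protein of the endoplasmic reticulum membrane, at 189, 326 and 272 against 416, 539 and 620 CPM (-1.15 ± 0.15, 0.00795), and Hsph1, at 38.9, 50.8 and 59.2 against 71.9, 68.1 and 124 CPM (-0.93 ± 0.17, 0.0156). Dnajb5 (-0.92 ± 0.17) and Dnaja4 (-0.54 ± 0.13) were also lower. None of the 6 overlapped between the classes, beside 9 of the 57 members tested without overlap. The test favours such genes, and the share without overlap was not counted over all genes.

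All 10 mitochondrial members had a positive log2 fold change in inhibitory nuclei, with a median of 0.17 beside -0.01 over all genes, but none was called in edgeR's test. Without the TMM factor the median of all genes was 0.12. Then 7 members were called, 4 higher and 3 lower, in place of 2 and 4, beside 26.3% of all genes. Hspd1 and Hspe1 were among the 7. Without the mouse block only Hspa12b remained called, and without mouse 1 it was again the only call. Of all genes 8.84% and 6.40% were called in these fits. Thinning to 1000 UMIs left Hspa12b too low to be tested and 3 members called, beside 11.8% of all genes.

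A list of 13 genes called heat-inducible here was then followed across the mice: Hspa1a, Hspa1b, Hsph1, Dnajb1, Hspa8, Hsp90aa1, Hsp90ab1, Hspd1, Hspe1, Dnaja1, Dnajb4, Hspa4l and Dnaja4. It includes genes that are also expressed constitutively, such as Hspa8 and Hsp90ab1. Each mouse is a single library, so the values below are given without a test, and depth, batch and mouse cannot be told apart. In mouse 2 the 237 granule-like and 193 CA1-like nuclei had medians of 13270 and 18710 UMIs, above the 9938 and 14350 of mouse 1. All kept nuclei of mouse 2 had a median of 1796, so these classes were a small, deep part of that library. The nuclei of a class also lay mostly in a different cluster for each mouse: 1624 granule-like nuclei of mouse 1, 222 of mouse 2 and 1336 of mouse 3 came from 3 separate clusters, and the oligodendrocyte-, microglia- and CA3-like classes were divided in a similar way. Beside the chaperones, 10 ribosomal protein genes summed to 490.2, 287 and 267 CPM in granule-like nuclei of mice 1, 2 and 3, and the 13 activity-regulated genes to 2857, 233 and 867 CPM. Their part in the chaperone values was not tested. In granule-like nuclei 12 of 12 countable heat-inducible members were higher in mouse 1 than in mouse 2, with a median log2 ratio of 0.62, beside 0.17 over all genes. In CA3-like nuclei 12 of 13 were higher (median 0.56 beside 0.02), and in CA1-like nuclei 11 of 13 (0.33 beside 0.11). In oligodendrocyte-like nuclei 8 of 12 were higher (0.32 beside -0.01) and in microglia-like nuclei 7 of 11 (0.33 beside 0.27). Above the median of all genes lay 11 of 12 (granule), 12 of 13 (CA3), 9 of 13 (CA1), 8 of 12 (oligodendrocyte) and 7 of 11 (microglia). All 57 countable members together had medians of 0.29 in granule-like and 0.19 in CA3-like nuclei.

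Dnajb1 stood, in granule-like nuclei, at 5.63, 0.932 and 2.09 CPM in mice 1, 2 and 3. Hspa8 followed the order of mice 1, 2 and 3 there, at 127, 65.6 and 53.8 CPM, as did Hsp90ab1 at 155, 87.3 and 76.9 CPM and Dnaja1, a J-domain partner of Hspa8, at 101, 73.3 and 56.2 CPM. For Dnajb4 the log2 ratio was 0.56 for mouse 1 over mouse 2 and -0.95 for mouse 3 over mouse 1. Mouse 3 was below mouse 1 in 12 of 13 heat-inducible members of granule-like nuclei, with a median of -0.84 beside -0.40 over all genes. Most genes were thus lower in mouse 3, and 5 of the 13 lay above the median of all genes.

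Hsph1 ran the other way in granule-, CA1- and CA3-like nuclei. It was highest in mouse 3, at 173 CPM against 110 and 89.8 in granule-like, 112 against 66.9 and 54.0 in CA1-like and 96.9 against 57.4 and 60.9 in CA3-like nuclei. The log2 ratios of mouse 3 over mouse 1 were 0.66 (95% counting interval 0.59 to 0.73), 0.74 (0.64 to 0.85) and 0.75 (0.62 to 0.89), intervals that cover counting error only. In oligodendrocyte-like nuclei the ratio was 0.44 and in microglia-like nuclei -0.53. Mouse 3 also had the deepest library, and thinning lowered the granule-like ratio to 0.45 and the CA1-like one to 0.44. Hspa12a, which is not heat-inducible, went the other way, at 77.3, 45.4 and 9.95 CPM in granule-like and 94.1, 79.7 and 26.6 CPM in CA1-like nuclei of mice 1, 2 and 3.

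**Figure D4:**
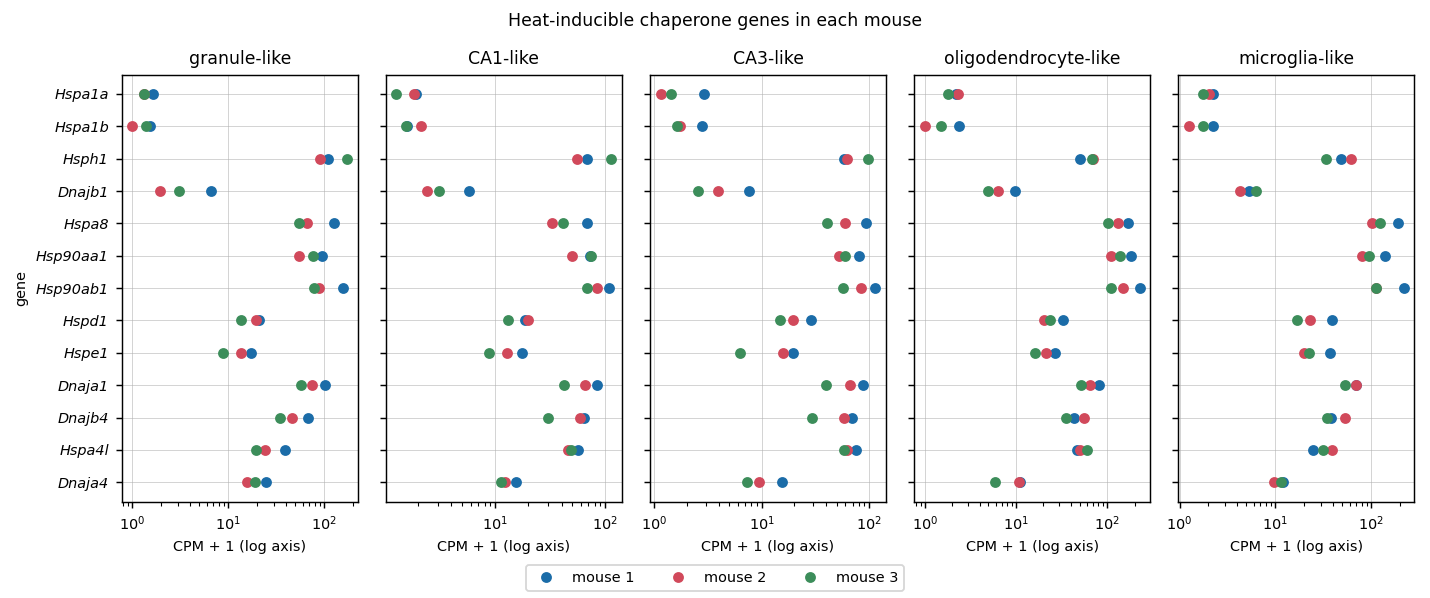
CPM + 1 (horizontal log axes) of 13 heat-inducible genes (vertical axis) in 5 classes of nuclei; each point is 1 mouse, coloured by mouse. In granule-like nuclei mouse 1 lies to the right of mouse 2 for every gene, whereas for Hsph1 mouse 3 lies farthest right in granule-, CA1- and CA3-like nuclei, at 173, 112 and 96.9 CPM.

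Genes that work with these chaperones were tested in the same fits, from lists of heat shock factors (5 genes), HSP70 nucleotide exchange and ubiquitin cofactors (15), HSP90 co-chaperones (16), small heat shock proteins (10), the cytosolic chaperonin TRiC (9) and the unfolded protein response (16). Cryab, a small heat shock protein abundant in oligodendrocytes, was lower in neurons than in glia (-3.60 ± 0.59, edgeR adjusted p 0.0238) and lower in OPC- and microglia-like than in oligodendrocyte-like nuclei (-2.33 ± 0.26 and -2.68 ± 0.31). Cdc37l1, related to the HSP90 adaptor for kinases, moved with it (-1.56 ± 0.28, -2.37 ± 0.29 and -2.75 ± 0.49). Of the small heat shock proteins 6 were tested between neurons and glia, 2 were lower, Cryab and Hspb6 (-2.70 ± 0.62), and 0 higher, beside 15.3% of all genes lower. None of the 5 heat shock factors was called there.

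Bag3, an HSP70 exchange factor of selective autophagy, was lower in inhibitory than in glutamatergic nuclei (-1.92 ± 0.34, edgeR adjusted p 0.0152) and lower in CA3- than in CA1-like nuclei (-1.98 ± 0.35, 0.014). Higher in inhibitory nuclei were Hsf4 (1.54 ± 0.21), Hspb8, the partner of Bag3, (1.80 ± 0.39) and Ddit3, the transcription factor CHOP of the unfolded protein response, (1.13 ± 0.19). Of the 16 unfolded protein response genes tested there, 1 was higher and 3 lower, a share near the 25.9% of all genes. Between granule-like and CA pyramidal-like nuclei 2 of these 16 were called, both higher in granule-like nuclei, and of the 15 exchange factors and cofactors 1, Bag2 (1.09 ± 0.24), both shares below the 27.4% of all genes. Between neurons and glia Sgtb, a brain-expressed cofactor of HSP70, was higher (1.19 ± 0.22), and Cct6b, a TRiC subunit, lower (-1.88 ± 0.45). In microglia-like nuclei Bag1 was higher (1.22 ± 0.23) and Ahsa2 lower (-1.08 ± 0.18) than in oligodendrocyte-like nuclei.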

How the data were processed

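The deposited files are raw UMI counts per gene and nucleus, made by the authors with Cell Ranger 7.0.0 (mice 1 and 2) and 7.1.0 (mouse 3) per the file headers, on build mm10 per the submitters' processing notes. For intronic reads, their use is not given in the sources here. The nucleus filter asked for 500 genes or more, with no more than 5% mitochondrial UMIs, and doublets were removed with Scrublet (732, 1394 and 265 nuclei; in mouse 2 by an expected rate of 0.8% per 1000 nuclei). The libraries were clustered together (scanpy 1.11.5, 3000 variable genes without the chaperone and pathway genes, 30 components, 20 neighbours, Leiden resolution 1.5) into 35 clusters, named from markers. The scoring rule for names was adjusted after the clusters were seen, so the classes are rebuilt and not the authors'.

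Counts were summed per mouse and class and tested with edgeR 4.0.16 (R 4.3.3; quasi-likelihood F test, TMM, filterByExpr, mouse as a block), with Benjamini-Hochberg adjustment over all genes tested and a call at an adjusted p under 0.05. In simulated data the fits called 4% of 2-fold changes between neurons and glia, 0% for microglia and 12.8% for OPC against oligodendrocytes. Between neuron classes they called 57.1% (inhibitory), 45.8% (granule) and 54.2% (CA3 against CA1). A member that was not called can thus still differ by 2-fold. The block comes from the animal: both sums of a mouse share it. Deviations of the sums of 1 mouse correlated by 0.30 to 0.73 across genes, other than 0.04 for mouse 2 between neurons and glia. Only 3 mice carry each test, and levels are CPM with SD over mice in classes of at least 20 nuclei per mouse. Fewer nuclei of a type within a class and less RNA per nucleus cannot be told apart.

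Genes were named if called at 2-fold or more, if among 21 core members, if among the 10 members with the highest ratio of top to median class, or, for mice, if heat-inducible. Called members below 2-fold outside the core were added after their values were seen. The members and lists were chosen with earlier results of these data known. Alternatives were DESeq2 1.42.0, its size factors, no TMM factor, no low-count filter, no block, each mouse left out, doublets kept, thinning to 1000 UMIs, each library clustered alone and a minimum of 1000 genes. Dnajb3 and Dnajb7 were too low for any test.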

Additional observations from a re-analysis of the deposited data

Results flagged for a closer look

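Hspa8 reached 604 CPM in mouse 1 and 275 CPM in mouse 2 in a cluster of nuclei that received no name and entered no comparison. It drew attention as a signal, of 151 and 532 UMIs, in nuclei left out of every comparison. In all other nuclei Hspa8 stood at 100.3 and 76.9 CPM. The cluster held 282 and 2015 nuclei of mice 1 and 2 and 0 of mouse 3, with median UMIs of 850.5 and 877 per nucleus, against 8841 and 2272 in other nuclei. Ratios of the cluster to other nuclei were taken with 10 CPM added to both levels. By this ratio 11 of the 60 chaperone genes were at least 2-fold higher in the cluster in mouse 1, beside 8.41% of all genes. In mouse 2 there were 2, beside 1.42%. Other members exceeded 2-fold in plain CPM without being counted, among them Dnajb1 in both mice. Hsp90aa1 stood at 452 CPM against 89.2 in mouse 1, and Hspa5 at 148 against 37.4. The 10 leading genes of the cluster also held the ribosomal protein genes Rplp1 and Rps29, with Fth1, Ubb, Tmsb4x and Mt1. What part the low depth and this RNA have in the chaperone levels was not tested.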

How the results depend on the processing

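The number of calls often changed under the alternatives; the cause was not tested. Without the mouse block, called members numbered 0 (CA3 against CA1), 1 (OPC), 2 (granule) and 1 (inhibitory), in place of 2, 4, 14 and 6, and 5 and 1 for neurons against glia and microglia. Of all genes 2.32%, 12.3%, 11.6%, 8.84%, 23.8% and 15.9% were then called, in the same order. DESeq2 called 1 (CA3 against CA1), 2 (OPC), 2 (microglia) and 9 (neurons). Thinning to 1000 UMIs left 1 (CA3 against CA1), 2 (OPC), 5 (granule), 3 (inhibitory) and 1 (neurons), with fewer members tested. The shares of all genes were 10.3%, 13.3%, 17.1%, 11.8% and 16.6%. Without the TMM factor the calls were 1 (CA3 against CA1), 2 (microglia) and 12 (neurons), beside 14.5%, 17.1% and 27.2% of all genes. With doublets kept they were 8 (granule) and 4 (microglia), beside 23.6% and 20.7% of all genes. CA3 against CA1 gave no value there, because mice 1 and 2 had only 3 CA1-like nuclei each. In those mice 396 of 399 and 1112 of 1115 CA pyramidal-like nuclei were then CA3-like, so the granule comparison was against other nuclei. Each library clustered alone gave 1 (CA3 against CA1), beside 6.90% of all genes. That fit used mice 1 and 3 only, since mouse 2 had 0 CA1-like nuclei. The minimum of 1000 genes and no low-count filter gave 2 each (microglia), beside 18.1% and 12.6% of all genes.

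Leaving out each mouse gave 1 to 6 calls for CA3 against CA1, 0 to 5 for OPC, 7 to 14 for granule, 1 to 6 for inhibitory, 0 to 9 for microglia and 0 to 14 for neurons against glia. Between replicates 3 and 1, the Hsph1 log2 ratio in granule-like nuclei was 0.75 with doublets kept, 0.75 with each library clustered alone and 0.45 thinned. In CA1-like nuclei it was 0.44 thinned, and in CA3-like nuclei 0.94 with each library clustered alone. Thinned, 7 of 10 counted heat-inducible members lay above the median of all genes in granule-like and 7 of 10 in CA3-like nuclei. Dnaja4 reversed between inhibitory and glutamatergic nuclei when thinned, to a log2 fold change of 0.0727. For single named genes, mice left out aside, 416 values kept direction and side of the threshold, 60 no longer passed, 13 newly passed and 1 reversed.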
